A study of Homo sapiens with 6 samples.

Results

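The urokinase plasminogen system was described here through 7 genes of the deposited table of 23368 gene symbols, taken by symbol alone: the activators PLAU and PLAT, the receptor PLAUR, the serpins SERPINE2 and SERPINB2, and the plasminogen-binding pair ANXA2 and S100A10. All 7 had a row, and all 7 passed the filter on low counts. PLAU encodes urokinase and PLAT encodes tissue plasminogen activator, secreted serine proteases that cut plasminogen into plasmin, a protease that degrades fibrin and extracellular matrix. PLAUR holds urokinase at the cell surface through a lipid anchor, serpins trap the activators in inactive complexes, and annexin A2 with S100A10 binds plasminogen at the plasma membrane. The system is known in breast cancer for matrix degradation and cell migration.

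The cells were MDA-MB231, an established human triple-negative breast cancer line with mesenchymal features. All were transfected with an siRNA by the same lipid reagent: a control siRNA (siControl) or 1 of 2 siRNAs of different sequence against LSD1 (siL1 and siL2). LSD1, encoded by KDM1A, is a histone demethylase. Total RNA of 2 libraries per group was sequenced, 6 in all, with no time after transfection in the labels. Whether the libraries of a group were grown apart is not in the labels. The p-values therefore cover library-to-library spread alone, which may be technical.

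KDM1A stood at 158 and 165 CPM (raw counts per 1000000 counts of the library) in siControl, 27.7 and 28.1 in siL1, and 17.4 and 18.1 in siL2. It was lower in siL2 than in siL1 by a log2 change of -0.66 (adjusted p = 4.36e-06, edgeR). Library totals ran from 22047738 to 26765079 counts, and 3 counts, the limit that a count of 0 allows, correspond to 0.112 to 0.136 CPM; these limits cover counting error only. VIM, a mesenchymal marker of this line, was at 3291 to 3707 CPM, and its 6-gene marker list summed to 7915 to 8734 CPM. Of those 6 genes, 1 rose and 4 (VIM among them) fell with siL1, and 2 rose and 1 fell with siL2. The siL1 change of VIM was small, at -0.09 on the log2 scale (adjusted p = 0.0368, edgeR). In the authors' deposited table its siL1 fold is 0.945 with an adjusted p of 0.261. Over all genes tested, 24.7% rose and 25.7% fell with siL1, and 22.6% and 23.3% with siL2. Among the 6 mesenchymal markers, the largest fall with siL1 was that of CD44 (log2 change -0.36, adjusted p = 2.59e-06, edgeR), while AXL rose (0.31, adjusted p = 2.99e-05). Of 7 luminal and HER2 markers, ESR1, PGR, CDH1 and KRT19 did not exceed 0.149 CPM, ERBB2 was at 46.6 to 59.8 and EPCAM at 9.34 to 12.6. GATA3 of that list rose with both siRNAs (0.96 and 0.46, adjusted p = 0.000277 and 0.0372, edgeR). In the authors' deposited table its siL2 fold is 1.38 with an adjusted p of 0.216. Of 8 blood cell markers MS4A1 was at 0 and PTPRC did not exceed 0.0406 CPM, but the list summed to 207 to 273 CPM, nearly all of it CD68 (206 to 272). CD68 rose with siL2 (0.31, adjusted p = 8.31e-05, edgeR), and CSF1R rose with siL1 from a low level of 0.242 CPM (1.40, adjusted p = 0.0294). The authors' siL1 fold of CSF1R is 2.69 with an adjusted p of 0.177. Marker calls were not run through the alternative settings. Of 11 fibroblast and endothelial markers 3 (COL1A2, DCN and LUM) were at 0 in every library, yet the list summed to 9.27 to 9.66 CPM in siControl, 24.3 to 25.2 in siL1 and 14.9 to 16.8 in siL2. Of the 6 that were tested, 4 rose with siL1 and 3 with siL2, and 0 fell. COL1A1 averaged 5.91, 12.2 and 8.71 CPM in siControl, siL1 and siL2, and PDGFRB 0.83, 7.19 and 3.73. The list sum moved in the same order as PLAT, PLAUR and PLAU, and the part of these markers in the results was not tested. In such bulk samples fewer cells of a type and less RNA per cell cannot be told apart.

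Urokinase and its receptor were both higher with each siRNA. PLAU (chromosome 10, 73909177 to 73917497 of GRCh38, plus strand) was at 112 and 124 CPM in siControl, 185 and 202 in siL1, and 165 and 179 in siL2. Every library of either siRNA lay above both control libraries. Here and below, the share of all genes whose groups part in this way is not given. A gene that did not pass can do so too, such as ENO1 with siL2 (adjusted p = 0.464, edgeR). PLAU averaged 118 ± 8.16 CPM in siControl, 194 ± 11.9 in siL1 and 172 ± 10.2 in siL2 (SD, n = 2). The log2 change was 0.72 with siL1 (SE 0.0608, adjusted p = 9.05e-07, edgeR's quasi-likelihood test with Benjamini-Hochberg adjustment over 13322 genes) and 0.54 with siL2 (SE 0.0609, adjusted p = 1.24e-05, edgeR). The difference of siL2 from siL1 was -0.18 (adjusted p = 0.0249, edgeR), and it no longer passed without the second siL1 library (-0.11, adjusted p = 0.234) or the first siL2 library (-0.11, adjusted p = 0.195).

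PLAUR (chromosome 19, 43646095 to 43670547, minus strand) was at 53.8 and 62.1 CPM in siControl, 108 and 109 in siL1, and 76.6 and 72.7 in siL2. The 3 groups did not overlap, with siL1 highest and siL2 between. The log2 change was 0.91 with siL1 (SE 0.062, adjusted p = 1.36e-07, edgeR) and 0.36 with siL2 (SE 0.0632, adjusted p = 0.000476, edgeR). The siL2 libraries were lower than the siL1 libraries by -0.55 on the log2 scale (SE 0.06, adjusted p = 1.02e-05, edgeR).

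**Figure D1:**
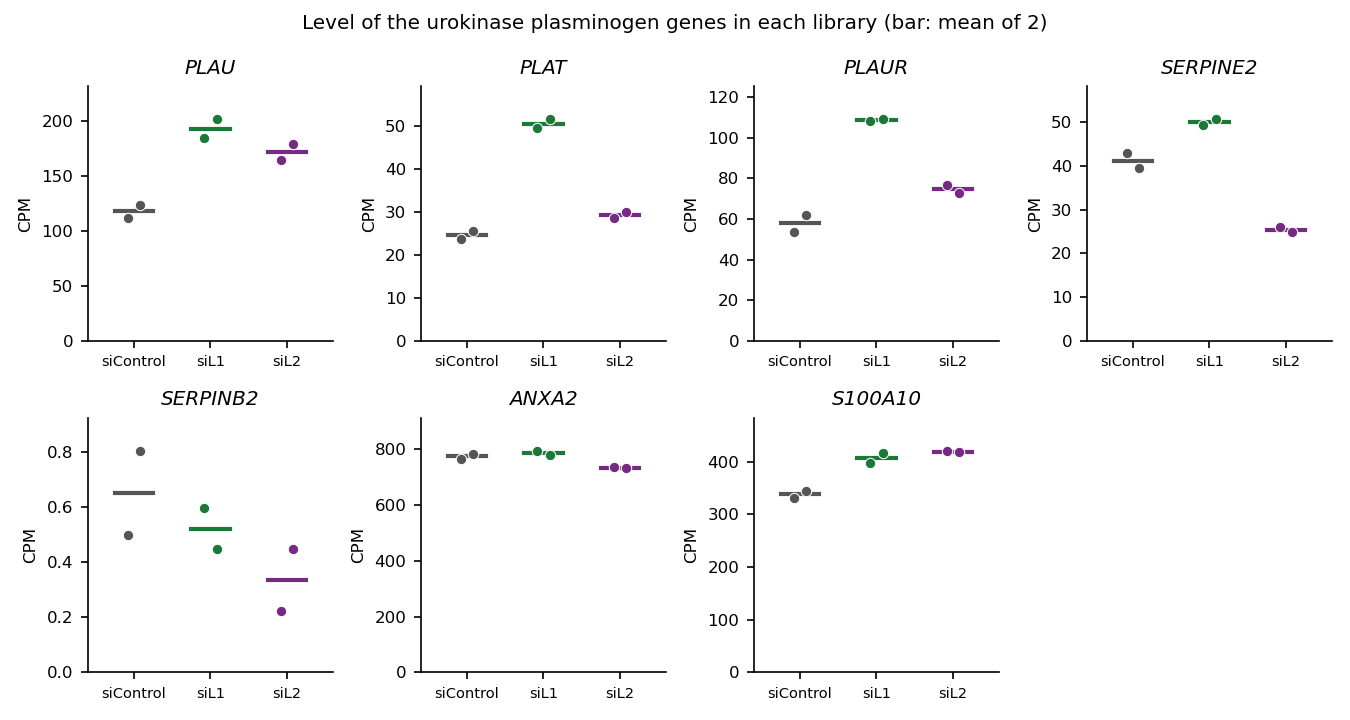
Level of each of the 7 genes by library in CPM (vertical axis from 0), by group. Points are libraries and bars the mean of 2; PLAU, PLAT and PLAUR lie above siControl in every siL1 and siL2 library, and SERPINE2 lies above it in siL1 and below it in siL2.

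Sequence before a RefSeq start site of 3 of these genes is printed because they share a direction with siL1 and part with siL2, where SERPINE2 is lower. Sequences are from RefSeq's promoter table on GRCh38.p14, 5′ to 3′ on the gene's strand. All 3 stretches lie inside the gene extents of GENCODE, which reach further 5′ than these RefSeq starts. The PLAU and SERPINE2 stretches hold no GENCODE exon bases, whereas the PLAUR window is GENCODE exon throughout, and only the 30 bases around its match are shown. Capitals mark motif matches: CAGGTG is the SNAI E-box CACCTG read on the other strand, GGGCGG is the Sp1 box and TGAGTCA is an AP-1 site. The PLAU stretch is chr10:73910882-73911103 (plus strand), the PLAUR stretch is chr19:43670337-43670366 (minus strand), and the SERPINE2 stretch is chr2:224031479-224031728 (minus strand).
PLAU: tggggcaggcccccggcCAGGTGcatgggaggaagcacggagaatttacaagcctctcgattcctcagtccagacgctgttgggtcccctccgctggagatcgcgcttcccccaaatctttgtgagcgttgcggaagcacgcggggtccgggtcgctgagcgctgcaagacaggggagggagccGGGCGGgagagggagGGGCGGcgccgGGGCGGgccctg
PLAUR: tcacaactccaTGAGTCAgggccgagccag
SERPINE2: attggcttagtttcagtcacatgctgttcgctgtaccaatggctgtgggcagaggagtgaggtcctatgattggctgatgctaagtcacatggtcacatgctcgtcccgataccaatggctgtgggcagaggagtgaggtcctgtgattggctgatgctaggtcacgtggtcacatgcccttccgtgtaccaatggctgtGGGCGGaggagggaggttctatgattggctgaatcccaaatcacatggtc

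Letter strings of 5 motifs were searched on both strands in the 250 bases before each RefSeq start, exon bases included. The table held 8 such windows for 6 of the 7 genes, and PLAT was not matched. The PLAU stretch holds GGGCGG beginning 66, 51 and 40 bases before its start and the E-box 233 bases before it. PLAU and SERPINE2 each have another start whose window is not printed. That of PLAU held 0 matches of the 5 motifs, and that of SERPINE2 held GGGCGG beginning 230 and 183 bases before its start. TGANTCA (AP-1) was found in 3 of the 8 windows, those of PLAUR (186 bases before the start), ANXA2 (127) and SERPINB2 (102), against 6.57% of 35116 windows of all genes. GGGCGG was found in 5 of 8 against 42.6%, TATAAA in 2 of 8 (ANXA2 and SERPINB2) against 10.7%, and CACCTG in 1 of 8 against 17.5%. AAGGTCA, the core bound by estrogen-related receptors, was in 0 of 8 windows against 3.44%. A match is a run of letters, not a measured binding site.

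PLAT, the fibrin-directed activator (chromosome 8, 42175233 to 42207724, minus strand), was at 23.7 and 25.7 CPM in siControl, 49.5 and 51.6 in siL1, and 28.5 and 30 in siL2. The 2 siL1 libraries stood well above the rest, and both siL2 libraries lay just above siControl. The log2 change was 1.04 with siL1 (SE 0.0683, adjusted p = 1.09e-07, edgeR), a linear fold of 2.05. With siL2 it was 0.24 (SE 0.0715, adjusted p = 0.0152, edgeR). That call ended without the first siControl library (0.18, adjusted p = 0.12) and without the second siL2 library (0.20, adjusted p = 0.0961). In the authors' deposited table the siL2 fold of PLAT is 1.18 with an adjusted p of 0.0676. The siL2 libraries were below the siL1 libraries by -0.80 (SE 0.066, adjusted p = 9.54e-07, edgeR).

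Among the inhibitors, SERPINE2 moved in opposite directions with the 2 siRNAs. SERPINE2 encodes protease nexin-1, which inhibits urokinase, tissue activator, plasmin and thrombin (chromosome 2, 223975112 to 224039319, minus strand). It was at 42.9 and 39.6 CPM in siControl, 49.3 and 50.7 in siL1, and 26 and 24.9 in siL2. The log2 change was 0.28 with siL1 (SE 0.0631, adjusted p = 0.00234, edgeR) and -0.70 with siL2 (SE 0.0672, adjusted p = 3.31e-06, edgeR). The difference between the siRNAs was -0.98 (SE 0.0657, adjusted p = 1.54e-07, edgeR), the largest in size among the 7 genes in that comparison.

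SERPINB2, plasminogen activator inhibitor 2 (chromosome 18, 63871692 to 63903890, plus strand), had 11 and 19 counts in siControl, 14 and 11 in siL1, and 6 and 11 in siL2. The siL1 counts overlapped the controls. In CPM the siL2 libraries, at 0.224 and 0.446, lay below both controls, at 0.499 and 0.804. Its log2 change was -0.33 with siL1 (95% interval -1.23 to 0.57, SE 0.415, adjusted p = 0.535, edgeR) and -0.98 with siL2 (SE 0.451, adjusted p = 0.0942, edgeR). A difference was not detectable at this depth. The 95% interval with siL2 was -1.96 to -0.00, so a large fall is not excluded.

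S100A10, the light chain that carries the plasminogen-binding lysine, rose with both siRNAs (chromosome 1, 151982915 to 151994390, minus strand). It was at 332 and 345 CPM in siControl, 398 and 417 in siL1, and 421 and 418 in siL2. All 4 knockdown libraries lay above both controls. The log2 change was 0.27 with siL1 (SE 0.0385, adjusted p = 7.18e-05, edgeR) and 0.31 with siL2 (SE 0.0384, adjusted p = 3.2e-05, edgeR). The difference between the siRNAs was 0.03, with a 95% interval of -0.05 to 0.12 (adjusted p = 0.515, edgeR).

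ANXA2, which anchors S100A10 to membrane phospholipid (chromosome 15, 60347134 to 60402883, minus strand), was at 765 and 783 CPM in siControl, 793 and 779 in siL1, and 734 and 731 in siL2. The siL1 libraries overlapped the controls and the siL2 libraries lay below them. The log2 change was 0.03 with siL1 (SE 0.0312, adjusted p = 0.496, edgeR) and -0.08 with siL2 (SE 0.0312, adjusted p = 0.0451, edgeR). The siL2 call held in only 4 of 15 alternative settings and was lost on leaving out any 1 of the 6 libraries (lowest value -0.10, highest -0.07). In the authors' deposited table the siL2 fold of ANXA2 is 0.944 with an adjusted p of 0.297. The siL2 to siL1 difference was -0.11 (adjusted p = 0.0112, edgeR), lost without the first siL1 library (-0.10, adjusted p = 0.0613), the first siL2 library (-0.11, adjusted p = 0.0685) or the second siL2 library (-0.11, adjusted p = 0.0632).

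The ANXA2 count is uncertain because the genome holds a near-identical processed copy, ANXA2P2 (chromosome 9, 33624274 to 33625293). It was listed at 681 and 703 CPM in siControl, 686 and 677 in siL1, and 643 and 635 in siL2, a count ratio to ANXA2 of 0.866 to 0.897 in every library. The copy matched the ANXA2 transcript at 1004 of 1020 aligned bases (98.4%), and 575 of its 971 windows of 50 bases were identical to it. The stretch with 5 of the 16 substitutions is printed to show what tells the 2 apart, with the differing bases in capitals: T304G, A316G, G317A, C341T and G346T, counted from 1 at the transcript's 5′ end, ANXA2 base first.
ANXA2: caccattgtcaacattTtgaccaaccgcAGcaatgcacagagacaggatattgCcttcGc
ANXA2P2: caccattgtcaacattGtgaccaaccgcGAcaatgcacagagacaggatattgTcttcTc

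With the counts of ANXA2 and ANXA2P2 summed, an alternative chosen after seeing the data, the log2 change was 0.01 with siL1 (adjusted p = 0.875) and -0.10 with siL2 (adjusted p = 0.0144, edgeR). ANXA2P2 alone changed by -0.02 with siL1 (adjusted p = 0.682) and by -0.12 with siL2 (adjusted p = 0.00876, edgeR). Its siL2 call ended without the second siControl library (-0.10, adjusted p = 0.0656) or the second siL2 library (-0.11, adjusted p = 0.0582). The other copies, ANXA2P3 and ANXA2P1, changed by -0.18 and -0.21 with siL2 (adjusted p = 0.00849 and 0.0172, edgeR). ANXA2P3 missed the threshold without the first siControl library (-0.15, adjusted p = 0.0647) or the first siL2 library (-0.14, adjusted p = 0.0918), and ANXA2P1 without any 1 of the 4 siControl and siL2 libraries (-0.22, -0.20, -0.20 and -0.22) and with DESeq2 (-0.20, adjusted p = 0.0905).

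**Figure D2:**
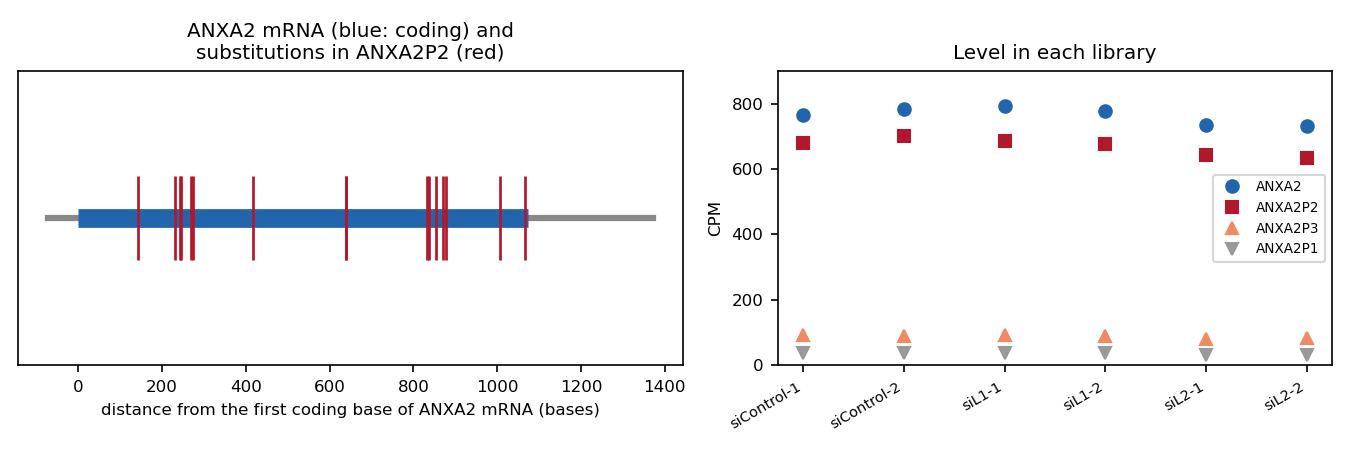
Left, the 16 substitutions of ANXA2P2 (red lines) along the ANXA2 transcript, by distance in bases from its first coding base, with the coding part in blue. Right, CPM of ANXA2 and its 3 copies in each library; ANXA2P2 follows ANXA2 at 635 to 703 CPM.

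Of the 7 genes, 5 rose with siL1, 0 fell and 2 did not pass. Over all genes tested, 50.4% passed in either direction, 24.7% higher and 25.7% lower. With siL2, 4 rose, 2 fell and 1 did not pass, where 45.8% of all genes passed, 22.6% higher and 23.3% lower. From siL1 to siL2, 0 were higher, 5 were lower and 2 did not pass, where 46.8% of all genes passed, 23.2% higher and 23.7% lower. The median log2 change of the 7 was 0.28 with siL1, 0.24 with siL2 and -0.55 from siL1 to siL2, beside -0.01, -0.00 and 0.00 over all genes tested. The first and second comparisons share their control libraries. The count from siL1 to siL2 was 3 without the first siL2 library.

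**Figure D3:**
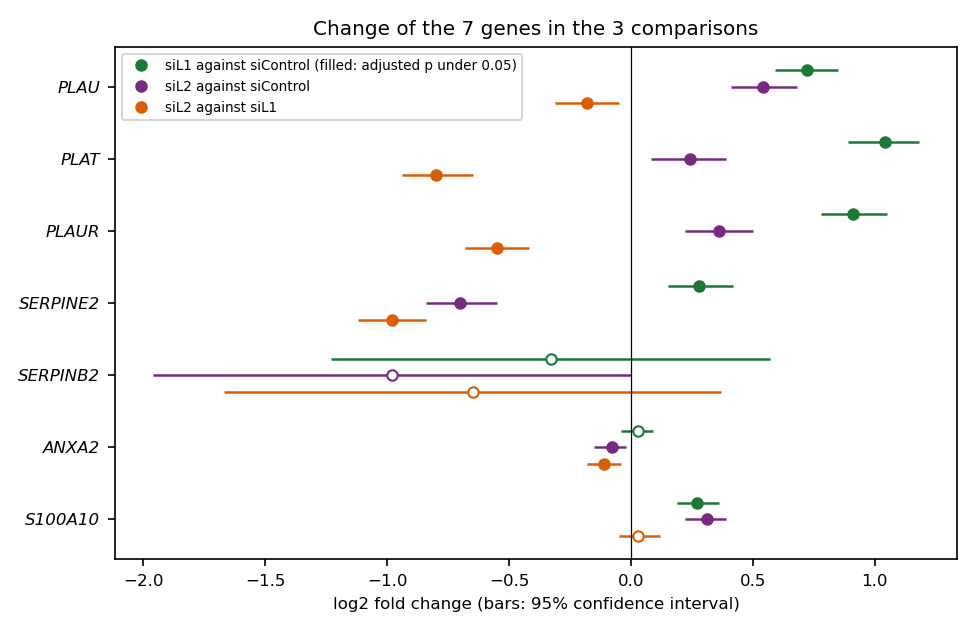
Log2 fold change of each of the 7 genes in the 3 comparisons, with 95% confidence intervals; filled points passed the threshold. Of the gaps between the siRNAs that passed, those of SERPINE2 (-0.98), PLAT (-0.80) and PLAUR (-0.55) are the widest, and the S100A10 points for the siRNAs nearly coincide at 0.27 and 0.31.

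Levels were divided by exon length to set genes side by side. The lengths join all GENCODE transcripts of a gene, and the annotation release behind the counts is not known, so such comparisons are approximate. Per kilobase of exon, ANXA2 was highest in siControl at 410 ± 6.93 CPM per kb (SD, n = 2), followed by S100A10 at 269 ± 7.55. PLAU at 43.8 ± 3.04 exceeded PLAUR at 26.4 ± 2.67, and SERPINB2 was lowest at 0.3 ± 0.0995. SERPINE2 stood at 13.1 ± 0.747 CPM per kb and PLAT at 8.96 ± 0.506. This order was reversed with both siRNAs: PLAT was at 18.3 ± 0.537 against 15.9 ± 0.318 for SERPINE2 in siL1, and at 10.6 ± 0.392 against 8.09 ± 0.261 in siL2. Before the division by length the 2 genes were nearly equal in siL1, at 50.6 CPM for PLAT and 50 for SERPINE2. The value of ANXA2 shares the uncertainty of its copy.

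Ratios of these per-kilobase levels were formed after the values were seen and carry no test. The ratio of PLAU to SERPINE2 was 3.06 and 3.66 in siControl, 4.41 and 4.68 in siL1, and 7.43 and 8.45 in siL2, without overlap. The ratio of PLAU to PLAUR was 1.7 and 1.63 in siControl, 1.4 and 1.51 in siL1, and 1.77 and 2.02 in siL2, lowest in the siL1 libraries. S100A10 to ANXA2 was 0.65 and 0.661, then 0.753 and 0.803, then 0.86 and 0.857.

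**Figure D4:**
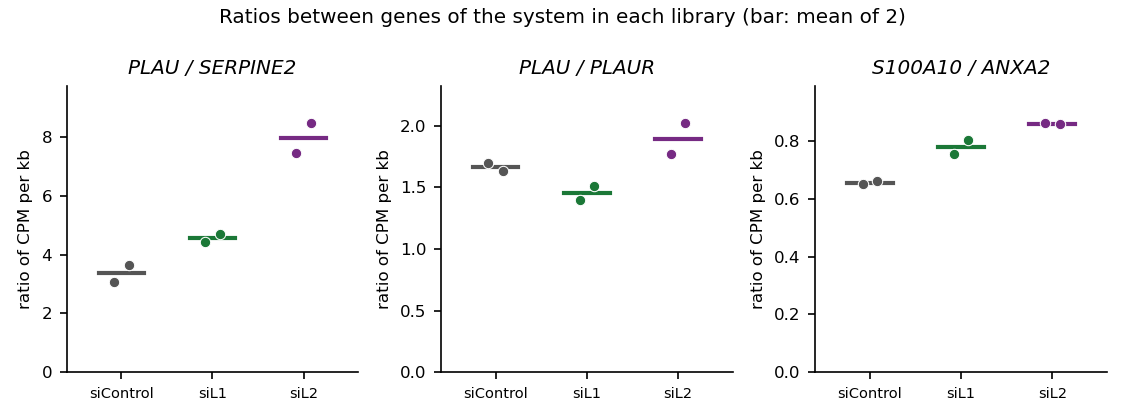
Ratio of CPM per kb between pairs of genes in each library (vertical axes from 0), with bars at the mean of 2. PLAU to SERPINE2 averages 3.36 in siControl, 4.54 in siL1 and 7.94 in siL2, while PLAU to PLAUR is lowest in the siL1 libraries, at 1.4 and 1.51.

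Other genes of the pathway came from fixed lists, and each list is given by its counts. These are to be read beside the shares over all genes tested. With siL1 24.7% rose and 25.7% fell, and with siL2 22.6% rose and 23.3% fell. Of 4 tested serpins listed as inhibitors outside the 7, 3 rose with siL1 and 2 with siL2, and 0 fell (median log2 change 0.50 and 0.37). The list is wider than inhibitors of the activators and plasmin, and the 2 that rose with siL2 were SERPINB8 and SERPINB6. SERPINB8, a furin inhibitor, changed by 0.78 (adjusted p = 8.32e-05, edgeR) and 0.62 (adjusted p = 0.00057). SERPINB6 changed by 0.22 and 0.24 (adjusted p = 0.00218 and 0.00127, edgeR). SERPINF2, the plasmin inhibitor alpha-2-antiplasmin, was low at 0.435 CPM in siControl and 1.26 in siL1, a log2 change of 1.53 (adjusted p = 0.00194, edgeR); with siL2 it was 0.50 (adjusted p = 0.312). Plasminogen itself, PLG, had 0 counts in all 6 libraries, which allows up to 0.112 to 0.136 CPM, and ENO1, the glycolytic enzyme that also binds plasminogen, changed by 0.26 with siL1 (adjusted p = 1.82e-05, edgeR) and 0.03 with siL2 (adjusted p = 0.464).

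Of 6 tested clearance and collagen receptors, 4 rose with siL1 and 0 fell, while with siL2 2 rose and 2 fell (medians 0.57 and 0.03). LRP1, which takes up serpin-bound activators, was at 5.9 and 5.04 CPM in siControl, 17.4 and 15 in siL1, and 11.4 and 8.04 in siL2. Its log2 change was 1.57 (adjusted p = 4.99e-06, edgeR) and 0.84 (adjusted p = 0.00139), the latter 0.56 without the first siL2 library. VLDLR, a related receptor, changed by 1.01 (adjusted p = 3.32e-06, edgeR) with siL1 and by -0.44 (adjusted p = 0.0057) with siL2, the siL2 call ending without the first siControl library (-0.36, adjusted p = 0.0515). MRC2, a collagen receptor that associates with PLAUR, changed by 0.91 and 0.33 (adjusted p = 1.31e-06 and 0.00583, edgeR), the second lost without the second siControl library (0.24, adjusted p = 0.0686) or the first siL2 library (0.26, adjusted p = 0.0527).

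Of 9 tested partners and ligands of the receptor, 5 rose and 1 fell with siL1, and 6 rose and 1 fell with siL2 (medians 0.29 and 0.28). The vitronectin receptor subunit ITGAV changed by 1.02 and 0.87 (adjusted p = 3.46e-09 and 1.13e-08, edgeR), while VTN, vitronectin, did not exceed 0.0423 CPM. The integrin subunits ITGA3 (0.59 and 0.49) and ITGA5 (0.39 and 0.33) also passed with both. ITGB1 changed by 0.29 with siL1 (adjusted p = 1.67e-05, edgeR) and 0.10 with siL2 (adjusted p = 0.0272), the siL2 call ending without the second siControl library (0.07), the first siL2 library (0.10) or the second (0.10).

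Of 8 tested activating proteases and related substrates, 4 rose with siL1 and 0 fell, and 3 rose and 1 fell with siL2 (medians 0.47 and 0.27). Cathepsin B, CTSB, which can activate pro-urokinase, changed by 0.48 and 0.52 (adjusted p = 7.56e-07 and 4.1e-07, edgeR), and the protease inhibitor SPINT2 by 0.29 and 0.28. CTSL1 (cathepsin L) and MET changed by 0.56 and 0.46 with siL1 (adjusted p = 4.06e-06 and 6.56e-06, edgeR), and stood at 0.05 and 0.03 with siL2 (adjusted p = 0.466 and 0.684). F12, coagulation factor XII, stood at 0.25 with siL1 (adjusted p = 0.113, edgeR) and changed by -0.45 with siL2 (adjusted p = 0.0126), lost without the first siControl library (-0.43, adjusted p = 0.0617) or the first siL2 library (-0.43, adjusted p = 0.0633), and with DESeq2 (-0.45, adjusted p = 0.0979).

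Of 5 tested genes of the Ly6/uPAR domain family, to which PLAUR belongs, 3 rose with siL1 and 0 fell, and 1 rose and 1 fell with siL2 (medians 0.13 and 0.09). CD59, a complement inhibitor, changed by 0.22 and 0.24 (adjusted p = 0.000187 and 0.000118, edgeR). LY6E changed by 0.13 with siL1 (adjusted p = 0.0264, edgeR), lost without the second siControl library (0.08, adjusted p = 0.228) or the first siL1 library (0.10, adjusted p = 0.16) and with DESeq2 (0.14, adjusted p = 0.0554), and by -0.35 with siL2 (adjusted p = 3.54e-05). LYPD6 changed by 0.40 with siL1 (adjusted p = 0.0143, edgeR), lost without the second siControl library (0.28, adjusted p = 0.134) or the first siL1 library (0.26, adjusted p = 0.155), and stood at 0.09 with siL2. LYPD3 stood at 0.06 and 0.51 (adjusted p = 0.842 and 0.0702, edgeR).

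Of 8 tested annexins other than ANXA2, 3 rose and 3 fell with siL1, and 3 rose and 1 fell with siL2 (medians -0.04 and 0.11). ANXA6 changed by 0.50 and 0.44 (adjusted p = 1.97e-07 and 6.46e-07, edgeR). ANXA1 was at 1064 and 1090 CPM in siControl, 941 and 968 in siL1, and 1346 and 1410 in siL2, below the controls with one siRNA and above them with the other. ANXA7 changed by -0.38 with siL1 (adjusted p = 1.15e-05, edgeR) and stood at 0.07 with siL2. ANXA5 changed by 0.34 and 0.13 (adjusted p = 5.36e-06 and 0.00878, edgeR), the second lost without the second siControl library (0.10) or the first siL2 library (0.13). ANXA4 changed by -0.19 and -0.35 (adjusted p = 0.0139 and 0.000283, edgeR), the first lost without the first siControl library (-0.16) or the first siL1 library (-0.18), and with DESeq2 (-0.18, adjusted p = 0.073).

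Of 8 tested genes in the list of S100 proteins other than S100A10 and AHNAK, 7 rose and 1 fell with siL1, and 8 rose with siL2 (medians 0.55 and 0.47). S100A6 changed by 0.51 and 0.49 (adjusted p = 9.52e-08 and 1.33e-07, edgeR). S100A4, a gene linked to metastasis, averaged 2.3 CPM in siControl, 5.2 in siL1 and 6.82 in siL2. S100A3 averaged 1.74, 4.33 and 6.36 CPM. S100A2 changed by 1.22 and 0.63 (adjusted p = 3.61e-05 and 0.00742, edgeR), the second lost without the first siControl library (0.50) or the first siL2 library (0.49). S100A11 changed by 0.35 and 0.13 (adjusted p = 1.62e-05 and 0.0187, edgeR), the second lost without the first siControl library (0.10) or the second siL2 library (0.11).

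**Figure D5:**
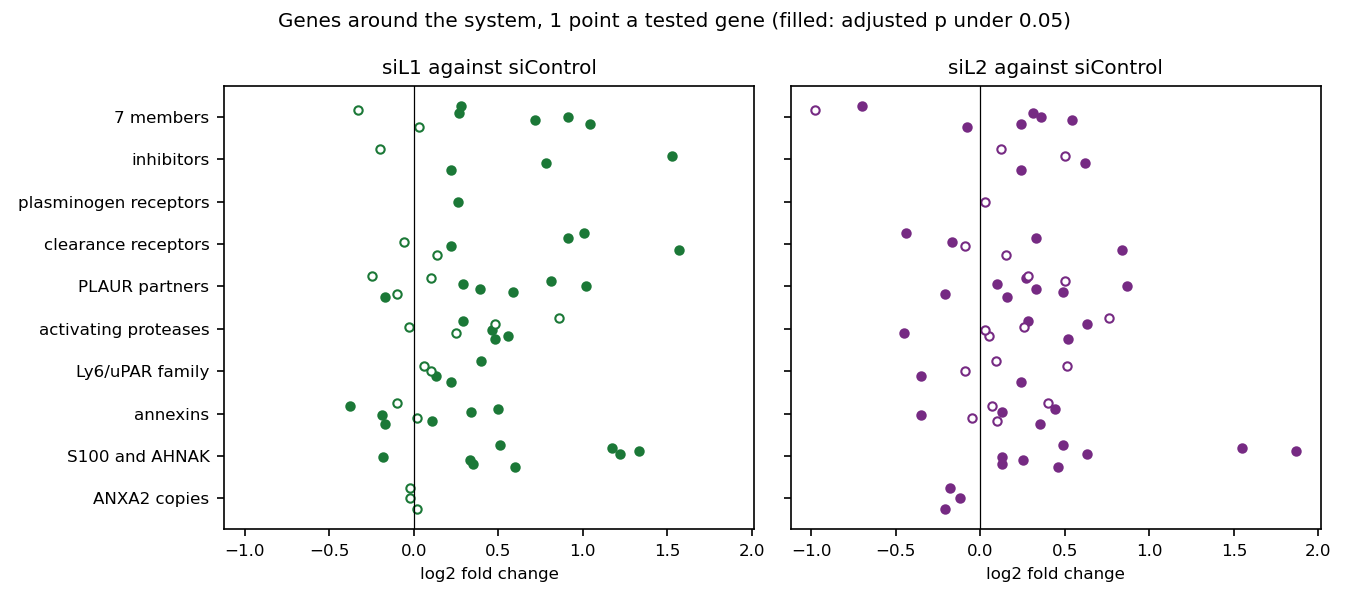
Log2 fold change of each tested gene of the fixed lists with siL1 (left) and siL2 (right); filled points passed the threshold. Among S100 proteins and AHNAK 7 of 8 genes lie above 0 with siL1 and 8 of 8 with siL2, and the 3 ANXA2 copies lie near 0 with siL1.

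Heptamers that an earlier analysis of these data named in 3′ untranslated regions were looked for in the 7 genes. TACATTT or ACATTTA occurred in 0 of 7 against 35.1% of 11365 tested genes. ACAGAGC occurred in 0 of 7 against 17.8%, and GTTACAA in 0 of 7 against 9.46%. The regions searched in the 7 genes ran from 248 bases (S100A10) to 932 bases (PLAU), and other transcripts of these genes were not searched. A shorter region has fewer positions for a match, and the shares over all genes were not matched for length. The counts of 0 therefore cannot show depletion.

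The genes whose centred log2 CPM over the 6 libraries lay nearest each of the 7 were found among 10446 genes averaging 5 CPM or more, by root mean square distance. ZNF292 was nearest to PLAU (0.0407), then ABTB2 (0.0438) and ST5 (0.0452). For PLAT they were GHITM (0.0451), PLOD2 (0.0572) and SEC24A (0.0689), and for PLAUR they were CDA (0.0573), IFI6 (0.0644) and LAPTM5 (0.0652). SERPINE2 lay nearest to ZNF765 (0.0364), STK3 (0.0436) and ARL15 (0.048). S100A10 lay nearest to SERINC1 (0.0151), BAG2 (0.0225) and AMOTL2 (0.0229), and ANXA2 to SRSF1 (0.0104), TOX4 (0.0126) and BTF3 (0.0131). SERPINB2, with few counts, had RNF126P1 (0.096), NDUFAF2 (0.108) and GPR3 (0.11). These distances describe likeness over 6 libraries only.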

How the data were processed

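RNA of 6 libraries was sequenced. Per the submitters' processing notes, TopHat 1.3.3, HTSeq and DESeq were used with hg19; the annotation release, settings and strand are not given in the sources used here. The deposited table holds raw read counts per gene symbol. It also holds the authors' fold change (a linear ratio) and the authors' adjusted p-value. Counts were tested with edgeR 4.0.16 (TMM, filterByExpr by group, quasi-likelihood, all 6 libraries in 1 fit, 3 residual degrees of freedom) in R 4.3.3, at an adjusted p of 0.05 over 13322 genes; 10046 were left out as low. Scripts were checked on simulated data. Gene positions and exon lengths are GENCODE v29 on GRCh38, joined by symbol only (86.4% of symbols matched). 1 gene of the inhibitor list is not reported here.

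The 7 genes and all lists were chosen with earlier results of these data known. Besides the 7, KDM1A, PLG, LRP1 and VTN, the genes named are, in each list, the 3 with the smallest p in each siRNA comparison, and the 3 nearest patterns of each of the 7. Cell type markers named are outside this rule and were chosen after their values were seen. Alternatives were DESeq2 1.42.0, limma-voom (limma 3.58.1), other scalings and filters, a replicate block, only the 2 groups compared, leaving out each library, and, added after seeing the data, ANXA2 and ANXA2P2 summed.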

Additional observations from a re-analysis of the deposited data

Results flagged for a closer look

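The siL2 and siL1 libraries differed for the genes below by edgeR's quasi-likelihood test of the difference itself (siL2 minus siL1, log2). Among the 7 genes the values were -0.18 for PLAU, -0.80 for PLAT, -0.55 for PLAUR, -0.98 for SERPINE2 and -0.11 for ANXA2. Among inhibitors and receptors they were -1.03 for SERPINF2, -0.23 for ENO1, -0.59 for MRC2, -1.45 for VLDLR and -0.74 for LRP1. Integrins gave -0.14 for ITGAV, -0.10 for ITGA3 and -0.19 for ITGB1. CTSL1 gave -0.51, MET -0.43, F12 -0.70, LYPD6 -0.31 and LY6E -0.48. Annexins gave 0.52 for ANXA1, 0.44 for ANXA7, -0.21 for ANXA5 and -0.16 for ANXA4, and S100 genes gave -0.22 for S100A11, -0.59 for S100A2 and 0.54 for S100A3. The copies gave -0.10 for ANXA2P2, -0.16 for ANXA2P3 and -0.23 for ANXA2P1. KDM1A was itself lower in siL2, by -0.66, and its part in these differences was not tested.

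The differences of PLAU, ANXA2, SERPINF2, ITGAV, ITGA3, LYPD6, ANXA4, S100A3, ANXA2P1, ANXA2P2 and ANXA2P3 each missed the threshold on leaving out at least 1 library. Those of SERPINF2, LYPD6, ANXA4 and S100A3 also missed it with DESeq2 (adjusted p = 0.155, 0.0854, 0.129 and 0.0753).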

How the results depend on the processing

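Over 15 alternatives, 291 of 311 values of the 7 genes kept their direction and side of the threshold, 18 lost the call and 2 changed sign. For the other genes named by the rule the numbers were 1395 of 1482, with 61 lost, 9 gained and 17 changed in sign. The count of the 7 called was 5 with siL1 throughout, 4 to 6 with siL2, and 3 to 5 from siL1 to siL2 on leaving out 1 library. Sign changes came in 12 results on leaving out 1 library: with siL1, ANXA2P2 ran from -0.04 to 0.00, ANXA2P3 from -0.05 to 0.01, ANXA2P1 from -0.03 to 0.06, LYPD3 from -0.08 to 0.22 and SERPINB2 from -0.62 to 0.06. With siL2, MET ran from -0.03 to 0.09 and LYPD6 from -0.04 to 0.21. From siL1 to siL2, S100A10 ran from -0.00 to 0.07, SPINT2 from -0.05 to 0.03, S100A6 from -0.04 to 0.00, SERPINB6 from -0.02 to 0.07 and SERPINB8 from -0.33 to 0.00. With upper quartile scaling ANXA2P2 and ANXA2P3 were at 0.01 with siL1. The cause was not tested.

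Same-numbered libraries deviated together (correlations 0.353, 0.457 and 0.411 over 10447 genes), but with 2 numbers per group they were not taken as pairs. With a replicate block 8036 genes passed with siL1, 7610 with siL2 and 7700 from siL1 to siL2, against 6712, 6106 and 6240 without it, and no call of the 7 genes changed. The block added calls for LYPD3 with siL2 (0.51, adjusted p = 0.0481) and, from siL1 to siL2, for SERPINB8 (-0.16, adjusted p = 0.0186), ANXA6 (-0.06, adjusted p = 0.0285) and S100A4 (0.38, adjusted p = 0.00945). Depth limits SERPINB2, with 6 to 19 counts per library.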
